A study of Mus musculus with 6 samples.

Results

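Interferon-stimulated genes are the genes a cell switches on after an interferon binds its receptor, and 39 of them, named by symbol, were followed here in αβ T cells of normal and injured mouse kidneys. Of the 39, 38 were matched by symbol among the 32285 features of the count matrices, and Mx1 was not analysed here. The study sorted live CD45+ TCR+ T cells from kidneys of male wild-type C57BL/6J mice aged 7 to 8 weeks. In the control group the kidneys were normal, and in the IR group both renal pedicles had been clamped for 30 min and then released (ischemia-reperfusion). The sort gave CD4+ cells, CD8+ cells and double-negative (DN) cells, which bear neither coreceptor, and each of the 6 groups was sequenced as 1 library with 10x Genomics 3′ chemistry. The number of mice behind each library and the hour at which injured kidneys were taken were not given in the sources used here.

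Type I interferons signal through the receptor of Ifnar1 and Ifnar2, whose kinases set off the assembly of a complex with Stat2 and Irf9 that binds the interferon-stimulated response element in promoters. Interferon gamma, which T cells themselves make, signals through Ifngr1 and Ifngr2 to factors that bind another element, the gamma-activated site. The genes induced in this way cut or sequester viral RNA, tag proteins with the ubiquitin-like protein ISG15, attack the membranes of vacuoles that hold pathogens, sense foreign nucleic acid and feed back on the pathway. Some of them are also transcribed at a low level without infection.

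The 6 libraries held 54039 barcodes, and the cell filters and the removal of 340 barcodes in 2 clusters with few Cd3 transcripts left 47939 T cells, between 4042 and 10107 per library. Depth was unequal between the conditions, with a median of 6427 to 8479 unique molecular identifiers (UMIs) per barcode in the control group and 1435 to 2389 in the IR group. Levels are in CPM, the counts scaled to a fixed total of retained UMIs, for the cells of a library summed, and a count of 0 in a library allows a level of up to 0.0494 to 0.684 CPM. With 1 library per group there is no replicate check, so no test was made, and the intervals below are exact 95% intervals that cover counting error only. In such sums, fewer cells that express a gene and less of its RNA per cell cannot be told apart. Sorting markers followed the labels, since Cd4 stood at 210 CPM in control CD4+ and 146 CPM in IR CD4+ T cells and at no more than 0.466 CPM in the other libraries. Control files carry Cell Ranger 5.0.1 in their headers and IR files 6.0.1, so condition and software version cannot be told apart.

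Most of these promoters carried the sequence that the interferon complex reads. RefSeq promoter windows on GRCm38.p6, from 250 bases before to 50 bases after a transcription start, were matched for 32 of the 39 genes. The core of the response element, searched as GAAANNGAAA on both strands, was found in 20 of the 32 genes (62.5%) and in 1079 of all 27025 genes with a window (3.99%). The palindrome of the gamma-activated site, TTCNNNGAA, was found in 7 of the 32 genes (21.9%) against 2582 of all genes (9.55%). A match is a description of the letters and not a measured binding site, and 5 genes held both motifs while 10 held neither. The following stretches of 50 bases, written 5′ to 3′ along the gene's strand with every core match in capitals, show the element in genes on which the results below turn, and Herc6 is shown as a gene with a large difference and no match in its window.
Ifit1, chr19:34640784-34640833, + strand: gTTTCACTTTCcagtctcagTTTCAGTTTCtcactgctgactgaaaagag
Ifit3, chr19:34583387-34583436, + strand: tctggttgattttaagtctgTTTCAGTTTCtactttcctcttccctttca
Rsad2, chr12:26456543-26456592, - strand: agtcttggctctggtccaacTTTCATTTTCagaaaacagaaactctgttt
Isg15, chr4:156200855-156200904, - strand: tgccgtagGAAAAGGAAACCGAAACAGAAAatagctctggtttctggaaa
Bst2, chr8:71537567-71537616, - strand: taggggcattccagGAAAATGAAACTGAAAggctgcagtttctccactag
Gbp7, chr3:142530263-142530312, + strand: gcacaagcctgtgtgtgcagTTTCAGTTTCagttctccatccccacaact
Cxcl10, chr5:92349073-92349122, - strand: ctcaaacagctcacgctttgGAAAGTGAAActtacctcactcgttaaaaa
Herc6, chr6:57580937-57580986, + strand: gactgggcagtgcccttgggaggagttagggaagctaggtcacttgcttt

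Over the 38 windows of these 32 genes there were 31 core matches, of which 26 lay before the start and 23 within 160 bases before it. The stretches above begin 105, 142, 140, 86, 144, 73, 233 and 55 bases before the start of Ifit1, Ifit3, Rsad2, Isg15, Bst2, Gbp7, Cxcl10 and Herc6. In Isg15 and Bst2 the cores run into each other. All 4 GTPase genes with a window (Gbp2, Gbp7, Igtp and Irgm1) carried a core and 2 of them also carried the gamma-activated palindrome, whereas 1 of the 3 transcription factor genes carried a core. Of the 8 palindromes found, 2 overlapped a core, in Bst2 and Ifitm3. A second list of 60 interferon-stimulated genes gave a core in 24 of the 48 with a window (50%).

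**Figure D1:**
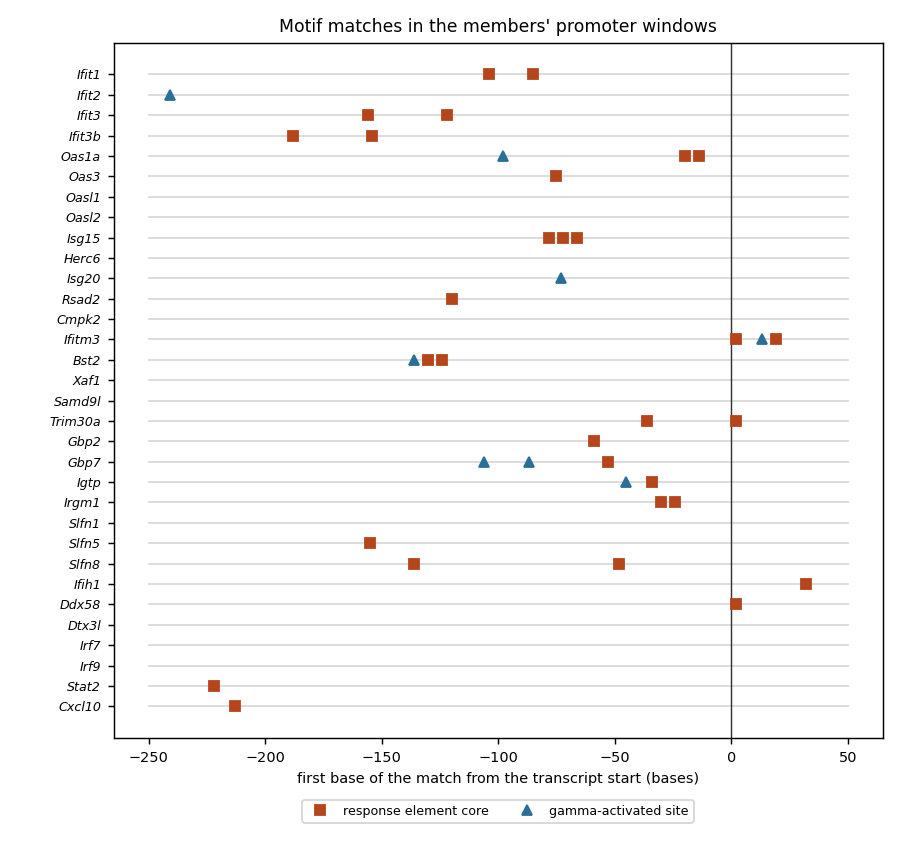
Positions of the response element core (GAAANNGAAA) and the gamma-activated palindrome (TTCNNNGAA) in the promoter windows of the interferon-stimulated genes, with the distance from the transcription start in bases on the horizontal axis and 1 line per gene, on which the windows of a gene are overlaid. Of the 31 core matches, 23 lie within 160 bases before the start.

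The interferon-stimulated genes were together lower in the IR group in all 3 subsets. Their summed level was 2627, 2507 and 2495 CPM in control CD4+, CD8+ and DN libraries and 1878, 1684 and 1805 CPM in the IR group. The log2 ratios of IR to control were −0.48, −0.57 and −0.47, and all kept their sign under the 14 alternatives tried. Over all genes that reached 10 CPM in the higher library the median log2 ratio was −0.26, −0.38 and −0.26 (0.12, 0.23 and 0.41 with no minimum), beside a median of −0.64, −0.79 and −0.60 for the interferon-stimulated genes tested.

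Genes at 10 CPM or more in at least 1 of the 2 libraries of a comparison entered the count and are called tested, although no statistical test was run, and those that differed by 2-fold or more are called higher or lower. In CD4+ T cells 10 of the 34 interferon-stimulated genes tested were lower in the IR group, where 15.1% of all genes were lower, and 1 was higher, where 7.73% of all genes were higher. In CD8+ T cells 12 of 32 were lower (17.7% of all genes) and 0 were higher (7.93% of all genes). In DN T cells 12 of 35 were lower (11.2% of all genes) and 2 were higher (8.32% of all genes). The 3 comparisons share no library. Of the 31 genes tested in all 3 subsets, 7 were lower in all of them (7.81% of all genes), namely Ifit2, Oas3, Herc6, Gbp7, Igtp, Slfn8 and Parp14, and of the 36 tested in at least 1 subset, 17 were lower in at least 1 (21.8% of all genes). Of these 7, under at least 1 alternative Ifit2, Oas3, Gbp7 and Parp14 were under 2-fold in CD4+, Oas3, Gbp7 and Igtp in CD8+, and Ifit2, Herc6, Gbp7 and Parp14 in DN T cells. The genes that were higher were Ifitm3 in CD4+ and DN T cells and Isg20 in DN T cells.

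Without regard to the 2-fold limit, 25 of the 38 genes were at a lower level in all 3 IR libraries than in any control library, 2 (Isg15 and Bst2) were above every control library, and 11 overlapped between the conditions. Among the 9659 genes that reached 10 CPM in any library, 43.5% lay below and 18.9% above, so that separation of the conditions was frequent over the whole transcriptome. Of the 36 interferon-stimulated genes that reached this level, 24 lay below and 2 above. Markers of cells other than T cells also differed with condition, in directions that depended on the list. The summed level of 10 myeloid markers (Lyz2, Csf1r, Cd68, Adgre1, Itgam, C1qa, C1qb, S100a8, S100a9 and Cst3) was 108 to 118 CPM in the control group and 158 to 292 CPM in the IR group. Cst3 held most of the control sum, and without it the other 9 summed to 25.6, 16.9 and 8.14 CPM in control CD4+, CD8+ and DN libraries and to 146, 32.7 and 31.5 CPM in the IR group. The sum of 4 globin genes was at most 1.28 CPM in the control and at least 20.1 CPM in the IR group. The 5 B cell markers, mostly Ighm, summed to 180, 173 and 171 CPM in control and to 161, 135 and 121 CPM in IR libraries. The 4 endothelial markers summed to 129, 99.7 and 45.5 CPM and to 102, 80.2 and 46.5 CPM. The 5 plasmacytoid markers summed to 40.5, 34.2 and 44.7 CPM and to 27.7, 38.5 and 31.9 CPM. The 6 tubule markers stayed between 1.79 and 3.19 CPM. The plasmacytoid cell marker Siglech had at most 1 UMI in any library, S100a8 had none in control CD8+ and DN T cells and Adgre1 none in IR DN T cells. The part of these differences in the levels of the interferon-stimulated genes was examined only where values are given below, and was otherwise not tested.

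**Figure D2:**
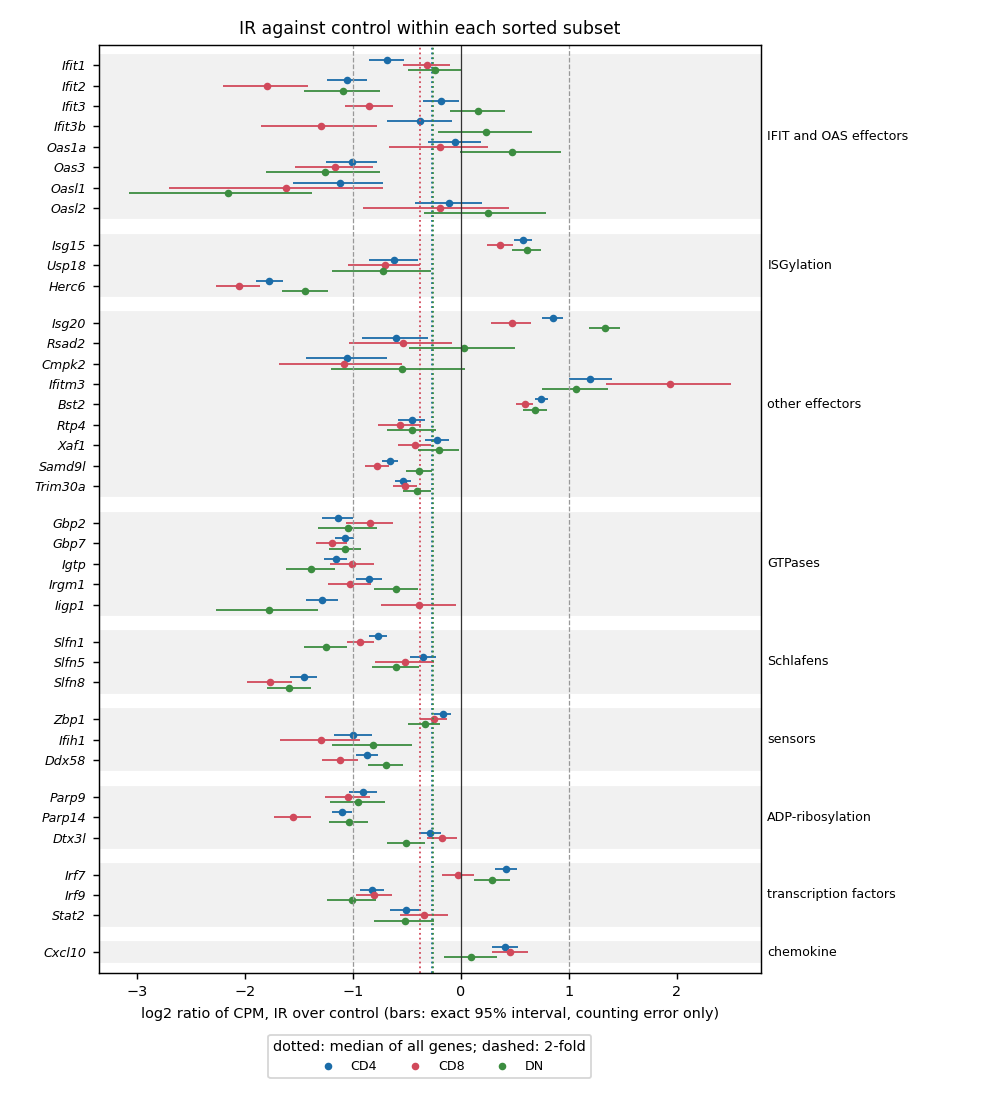
Log2 ratio of the level in the IR group to that in the control group for each of the 38 interferon-stimulated genes in CD4+, CD8+ and DN T cells, with exact 95% intervals for counting error. Dotted lines mark the median of all genes tested (−0.26, −0.38 and −0.26) and dashed lines 2-fold differences. Herc6 lies below 2-fold lower in all 3 subsets, while Isg15, Isg20, Ifitm3, Bst2 and Cxcl10 lie above 0 in all 3.

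The IFIT proteins, which bind foreign RNA and block its translation, and the oligoadenylate synthetases, which make the signal that activates RNase L, differed from gene to gene. Of the 5, 5 and 7 tested in CD4+, CD8+ and DN T cells, 2, 3 and 3 were lower (15.1%, 17.7% and 11.2% of all genes) and 0 were higher, and in DN T cells 4 of the 8 genes had a ratio above 0. The 8 genes summed to 161, 171 and 155 CPM in control CD4+, CD8+ and DN libraries and to 106, 94.5 and 119 CPM in the IR group. Ifit2 stood at 36.4, 30.7 and 34.0 CPM in control CD4+, CD8+ and DN libraries and at 17.5, 8.85 and 16.0 CPM in the IR group. All 3 IR libraries were below every control library, with log2 ratios of −1.05 (−1.24 to −0.87), −1.80 (−2.21 to −1.42) and −1.09 (−1.46 to −0.75). Oas3, a synthetase of long oligoadenylates, was at 21.7, 24.1 and 17.4 CPM in the control group and at 10.8, 10.7 and 7.30 CPM in the IR group, which again did not overlap. Oasl1, a relative of the synthetases that limits Irf7 translation, was at 7.89, 4.78 and 13.2 CPM in control and at 3.62, 1.55 and 2.96 CPM in IR libraries. It reached 10 CPM only in control DN T cells, where the log2 ratio was −2.16 (−3.08 to −1.38).

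Ifit1 and Ifit3 did not separate from control by 2-fold. Ifit1 was at 38.2, 37.4 and 39.5 CPM in control CD4+, CD8+ and DN libraries and at 23.7, 30.1 and 33.5 CPM in the IR group. Ifit3 was at 27.4, 50.02 and 28.4 CPM in the control group and at 24.1, 27.8 and 31.7 CPM in the IR group. The conditions overlapped for Ifit3, whose highest level was in control CD8+ T cells. Ifit3b is nearly identical to Ifit3, so that reads may be split between them, and it ranged from 4.97 to 12.2 CPM with a 2-fold lower level in IR CD8+ T cells. Oas1a and Oasl2 were between 3.41 and 12.4 CPM in every library, and neither differed 2-fold with condition.

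Isg15 and the enzyme that attaches it went opposite ways. Herc6, the ligase that joins ISG15 to proteins in mouse cells, was at 127, 130 and 118 CPM in control CD4+, CD8+ and DN libraries and at 37.2, 31.2 and 43.5 CPM in the IR group. Every IR library was below every control library, with log2 ratios of −1.78 (−1.90 to −1.65), −2.06 (−2.27 to −1.86) and −1.44 (−1.66 to −1.24). Isg15 itself was at 75.3, 86.3 and 74.4 CPM in the control group and at 112, 111 and 114 CPM in the IR group. All 3 IR libraries were above control and close to each other, with ratios of 0.58 (0.49 to 0.66), 0.36 (0.25 to 0.48) and 0.61 (0.47 to 0.74) that did not reach 2-fold, and the CD8+ ratio changed sign under at least 1 of the alternatives. Usp18, which removes ISG15 from proteins and restrains the type I receptor, was at 19.1, 20.8 and 16.2 CPM in control and at 12.4, 12.7 and 9.80 CPM in IR libraries.

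Of the remaining effectors tested, 1 of 8, 0 of 6 and 2 of 7 were higher in IR CD4+, CD8+ and DN T cells (7.73%, 7.93% and 8.32% of all genes). In each subset 0 were lower (15.1%, 17.7% and 11.2% of all genes). Bst2 (tetherin), which holds budding virus at the cell surface, was at 127, 164 and 105 CPM in control CD4+, CD8+ and DN libraries and at 213, 246 and 169 CPM in the IR group. Each IR library exceeded all control libraries, and the log2 ratios of 0.74 (0.68 to 0.80), 0.59 (0.51 to 0.67) and 0.68 (0.57 to 0.79) were positive in every alternative but under 2-fold. Isg20, an exonuclease that degrades RNA, was at 48.6, 32.5 and 41.9 CPM in the control group and at 87.7, 45.0 and 106 CPM in the IR group. It was highest in IR DN T cells, with a log2 ratio there of 1.33 (1.19 to 1.48) that stayed past 2-fold in every alternative, against 0.85 in CD4+ and 0.47 in CD8+ T cells.

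Ifitm3, which blocks the fusion of virus with endosomes and is abundant in many cells other than lymphocytes, was at 9.71, 1.67 and 11.3 CPM in control CD4+, CD8+ and DN libraries and at 22.3, 6.36 and 23.7 CPM in the IR group. The log2 ratios were 1.2 (0.997 to 1.40), 1.93 (1.35 to 2.50) and 1.07 (0.76 to 1.37), of which that in CD8+ T cells stood under 10 CPM in both libraries. This gene depended on which barcodes were counted, since the ratios were 1.58, 3.23 and 2.01 with the non-T clusters kept. When a cluster of 220 barcodes led by Cd74, Apoe, H2-Eb1 and S100a9 was left out, a step added once the data had been seen, they were 1.14, 2.22 and 0.84, and Ifitm3 in DN T cells was then under 2-fold.

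The other members of this group differed less than 2-fold wherever they reached 10 CPM. Samd9l, a growth restraining antiviral protein, was at 170, 186 and 188 CPM in the control group and at 108, 109 and 144 CPM in the IR group. Trim30a, which dampens inflammatory signalling, was at 158, 163 and 158 CPM in control and at 109, 113 and 119 CPM in IR libraries, although its ratio changed sign with the alternatives in all 3 subsets. Rtp4 and Xaf1, the latter a promoter of cell death, were lower in all 3 IR libraries than in any control library, with Xaf1 between 52.5 and 77.9 CPM and Rtp4 between 36.2 and 59.6 CPM over the 6 libraries. The log2 ratio of Rtp4 was −0.46, −0.57 and −0.45 but 0.30, 0.20 and 0.20 when centred by intronic length. Rsad2 (viperin), which makes a chain terminating nucleotide, and its neighbour Cmpk2 were between 4.46 and 10.7 CPM.

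**Figure D3:**
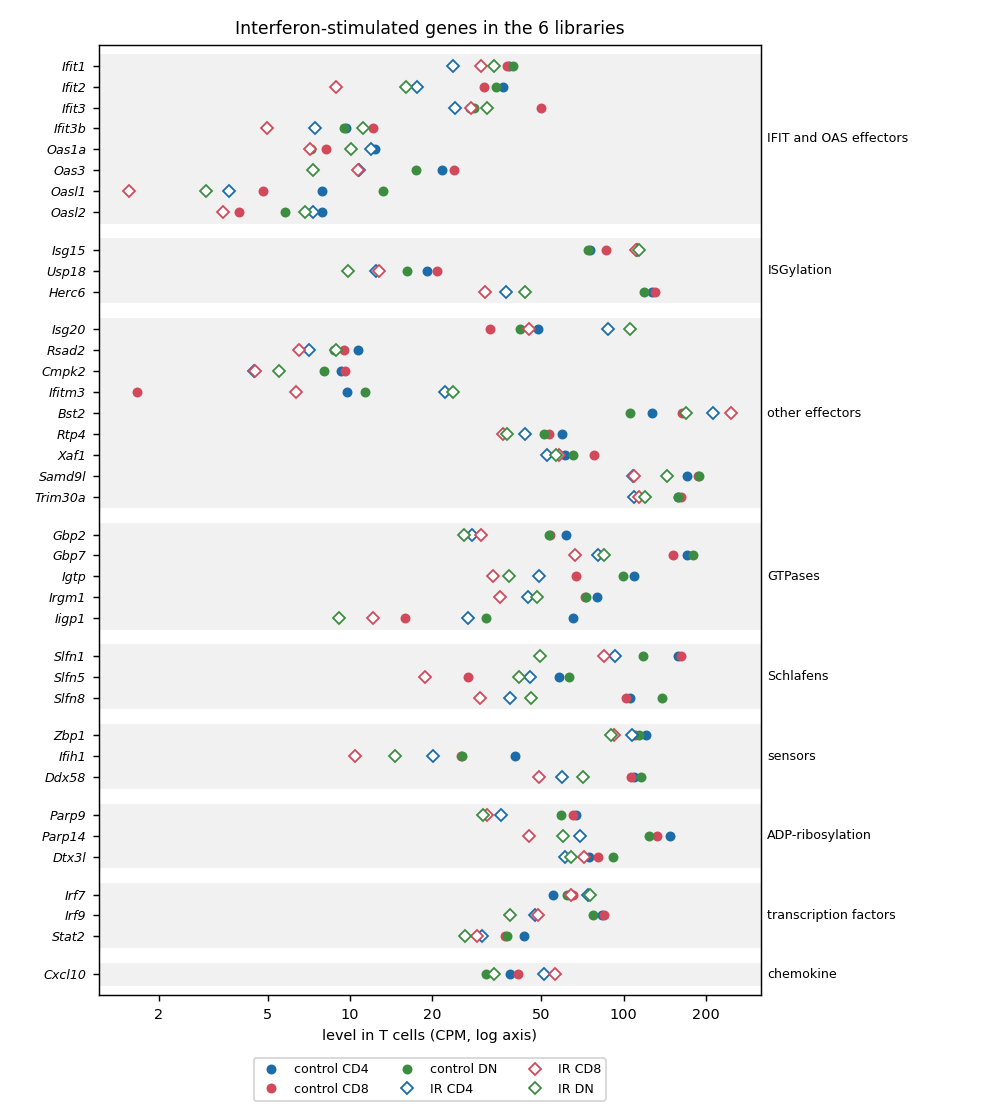
Level of each of the 38 interferon-stimulated genes in the 6 libraries, in CPM on a log axis, grouped by role, with 1 point per library. IR points lie left of all control points for 25 genes and right of them for Isg15 and Bst2.

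Of the 5 GTPases that gather on vacuoles of pathogens, 4, 3 and 4 were lower in IR CD4+, CD8+ and DN T cells (15.1%, 17.7% and 11.2% of all genes). The 5 genes summed to 487, 361 and 437 CPM in control CD4+, CD8+ and DN libraries and to 229, 177 and 207 CPM in the IR group, with log2 ratios of −1.09, −1.03 and −1.08. Gbp7, a guanylate-binding protein, was at 170, 152 and 179 CPM in the control group and at 80.5, 66.3 and 85.0 CPM in the IR group. Igtp, an immunity-related GTPase, was at 110, 67.0 and 99.7 CPM in control and at 49.0, 33.4 and 38.1 CPM in IR libraries, with log2 ratios of −1.16 (−1.27 to −1.05), −1.01 (−1.21 to −0.81) and −1.39 (−1.62 to −1.17). For these genes the conditions did not overlap. Iigp1, whose product loads on the vacuole membrane, differed by subset as well as by condition, at 65.4, 15.8 and 31.3 CPM in control and 26.9, 12.1 and 9.12 CPM in IR libraries. Its log2 ratio was −1.28 (−1.43 to −1.13) in CD4+, −0.39 (−0.74 to −0.05) in CD8+ and −1.78 (−2.27 to −1.33) in DN T cells. Gbp2 was lower by 2-fold in CD4+ and DN T cells (61.6 to 27.9 CPM and 53.6 to 26.0 CPM), and Irgm1, a regulator of the other GTPases, in CD8+ T cells (72.2 to 35.4 CPM). These differences of Gbp2 and Irgm1 were each under 2-fold in at least 1 alternative. Genes of these families have near copies, between which the counting may divide reads.

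Of the 3 Schlafens, of which Slfn1 is known as a brake on T cell growth, 1, 1 and 2 were lower in IR CD4+, CD8+ and DN T cells (15.1%, 17.7% and 11.2% of all genes). Slfn8 was at 106, 102 and 138 CPM in control CD4+, CD8+ and DN libraries and at 38.6, 30.0 and 45.8 CPM in the IR group. The log2 ratios of −1.46 (−1.58 to −1.33), −1.77 (−1.98 to −1.56) and −1.59 (−1.80 to −1.39) stayed past 2-fold in every alternative, which held for no other gene of the 38 in all 3 subsets. Slfn1 was at 159, 162 and 118 CPM in control and at 93.3, 85.1 and 49.5 CPM in IR libraries, and was lower by 2-fold in DN T cells, at −1.25 (−1.45 to −1.05). Slfn5 set the CD8+ libraries apart from the others, at 26.9 CPM in control CD8+ against 58.0 and 63.1 CPM in control CD4+ and DN, and at 18.8 CPM in IR CD8+ against 45.4 and 41.5 CPM. Slfn8 has close paralogs, so its value may include or lack reads of theirs.

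Of the 3 sensors of foreign nucleic acid, 1, 2 and 0 were lower in IR CD4+, CD8+ and DN T cells (15.1%, 17.7% and 11.2% of all genes). Ifih1 (MDA5), which detects long double-stranded RNA, was at 40.2, 25.5 and 25.6 CPM in control CD4+, CD8+ and DN libraries and at 20.1, 10.4 and 14.6 CPM in the IR group. Ddx58 (RIG-I), the sensor of RNA with a free triphosphate end, was at 109, 106 and 116 CPM in control and at 59.7, 48.9 and 71.4 CPM in IR libraries. Ifih1 was 2-fold lower in CD4+ and CD8+ T cells and Ddx58 in CD8+ T cells. Each of these differences was under 2-fold in at least 1 alternative. Zbp1, which detects left-handed nucleic acid and can start necroptosis, was at 121, 110 and 114 CPM in control and at 107, 92.7 and 90.3 CPM in IR libraries.

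Parp14 led the enzymes of ADP-ribosylation. This mono-ADP-ribosyltransferase was at 148, 133 and 123 CPM in control CD4+, CD8+ and DN libraries and at 69.0, 45.0 and 60.2 CPM in the IR group, with log2 ratios of −1.10 (−1.195 to −1.01), −1.56 (−1.73 to −1.39) and −1.04 (−1.22 to −0.86). Parp9 and its partner, the ubiquitin ligase Dtx3l, share a complex but differed in size of ratio. Parp9 was at 66.8, 65.5 and 59.0 CPM in control and at 35.7, 31.7 and 30.6 CPM in IR libraries, whereas Dtx3l was at 74.4, 80.7 and 91.3 CPM in control and at 61.0, 71.5 and 64.3 CPM in IR libraries. Of the Parp9 and Dtx3l values only Parp9 in CD8+ T cells was 2-fold lower, and it was under 2-fold in at least 1 alternative. With Parp14, 1, 2 and 1 of the 3 genes were lower in IR CD4+, CD8+ and DN T cells (15.1%, 17.7% and 11.2% of all genes).

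Of the 3 transcription factors, 1 was lower by 2-fold, Irf9 in DN T cells (11.2% of all genes), and it was under 2-fold in at least 1 alternative. Irf9, the DNA-binding subunit of the interferon complex, was at 83.7, 85.1 and 77.1 CPM in control CD4+, CD8+ and DN libraries and at 47.3, 48.7 and 38.3 CPM in the IR group, with log2 ratios of −0.82 (−0.94 to −0.71), −0.80 (−0.97 to −0.64) and −1.01 (−1.24 to −0.79). Stat2 was at 43.4, 36.9 and 37.6 CPM in control and at 30.4, 29.2 and 26.2 CPM in IR libraries. Both were lower in every IR library than in any control library. Irf7, which drives further interferon production, was at 55.4, 65.2 and 62.0 CPM in control and at 73.8, 64.1 and 75.7 CPM in IR libraries, where the conditions overlapped and the sign depended on the alternative. Cxcl10, a chemokine that draws T cells bearing Cxcr3, was at 38.6, 41.1 and 31.4 CPM in control and at 51.2, 56.3 and 33.5 CPM in IR libraries, with the IR DN level inside the control range. Its ratio was above 0 in every alternative in CD8+ T cells, but its sign depended on the alternative in CD4+ and DN T cells.

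The size of the ratio went with the length of a gene's introns. Across the interferon-stimulated genes tested, Spearman's rho between the log2 ratio of IR to control and the intronic length was −0.56 in CD4+ (34 genes), −0.51 in CD8+ (32 genes) and −0.50 in DN T cells (35 genes). The points share libraries, so these are descriptions. All genes showed the same relation, with rho of −0.51, −0.35 and −0.37 and a median log2 ratio of 0.45, 0.16 and 0.31 in the tenth of genes with the shortest introns and −0.99, −0.86 and −0.69 in the tenth with the longest. The 19 genes with the longer introns summed to 1434, 1321 and 1376 CPM in the control group and to 750, 641 and 768 CPM in the IR group. The 19 with the shorter introns summed to 1194, 1186 and 1119 CPM and to 1128, 1043 and 1037 CPM.

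Examples stand at both ends of that range. Herc6, with 74341 intronic bases, was lower in each subset, whereas Isg15 with 639, Ifitm3 with 507 and Bst2 with 2299 were above control. Irf9, with 1074, was lower although its introns are short, and so was Slfn1 with 3958. When each ratio was set against the median of genes of like intronic length, 7, 5 and 7 of the interferon-stimulated genes were 2-fold lower in CD4+, CD8+ and DN T cells in place of 10, 12 and 12, and 0, 0 and 1 were higher. Centred in the same way, 5.08%, 5.81% and 4.13% of all genes were lower and 8.35%, 10.6% and 9.55% were higher. Of the genes lower before centring, 5, 5 and 7 were lower after it, and Irgm1 and Irf9 passed the limit in CD4+ T cells only after it. The median of the genes was then −0.43, −0.46 and −0.33. The study's methods name default settings without mention of intronic reads, and the part of such reads in these ratios was not tested.

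**Figure D4:**
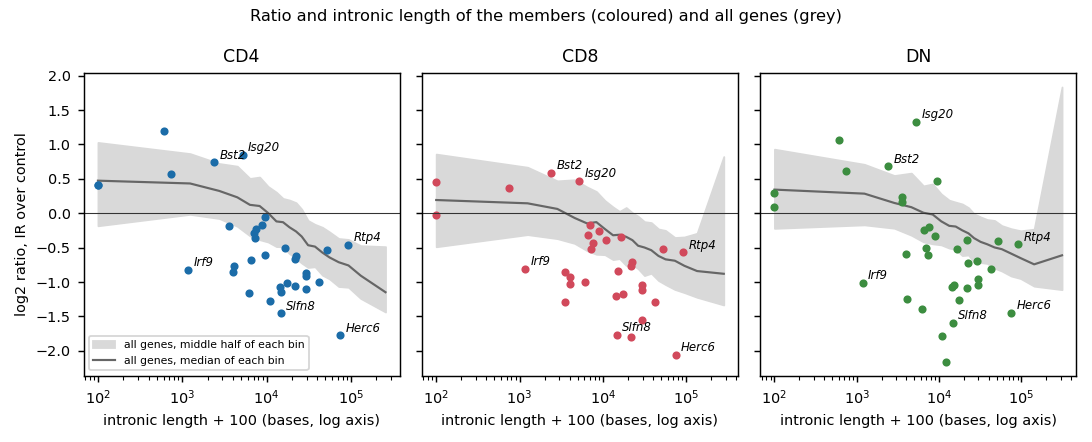
Log2 ratio of IR to control against intronic length in bases (log axis) in the 3 subsets, with points for the interferon-stimulated genes and a line for the median of all genes in bins of length. Both go down with length, with Spearman's rho of −0.56, −0.51 and −0.50 for the interferon-stimulated genes.

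Subsets of 1 condition were compared by the same rule. These comparisons share libraries with each other and with those above. In the control group, DN against CD4+ T cells gave 0 higher (1.35% of all genes) and 1 lower of 35 genes (1.4% of all genes). DN against CD8+ gave 3 higher (3.53%) and 0 lower of 34 (3.03%), and CD4+ against CD8+ gave 2 higher (2.61%) and 0 lower of 34 (1.75%). In the IR group, DN against CD4+ gave 0 higher (4.84%) and 1 lower of 34 (2.46%), DN against CD8+ gave 4 higher (7.74%) and 0 lower of 34 (4.21%), and CD4+ against CD8+ gave 3 higher (3.72%) and 0 lower of 33 (3.91%). As shares of the interferon-stimulated genes tested, those higher made up 8.82% (DN against CD8+) and 5.88% (CD4+ against CD8+) in the control group and 11.8% and 9.09% in the IR group, on 2 to 4 genes each.

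Of the genes behind these counts, Iigp1, Slfn5 and Ifitm3 passed the limit in both conditions and Oasl1, Isg20 and Ifit3b in 1 only. Iigp1 was lower in DN than in CD4+ T cells in the control group (log2 ratio −1.06) and in the IR group (−1.56), and higher in CD4+ than in CD8+ T cells (2.05 and 1.15). Slfn5 was lowest in CD8+ T cells in both conditions, with log2 ratios of DN to CD8+ of 1.23 and 1.14 and of CD4+ to CD8+ of 1.11 and 1.27. Ifitm3 was likewise lowest in CD8+ T cells, with log2 ratios of DN to CD8+ of 2.76 in the control and 1.90 in the IR group. The remaining differences past the limit were those of Oasl1 between DN and CD8+ T cells in the control group (1.47), Isg20 (1.23) and Ifit3b (1.17) between the same subsets in the IR group, and Ifitm3 between IR CD4+ and CD8+ T cells (1.81).

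The genes around the pathway were examined from a set list. Among the ligands, Ifng was at 450, 340 and 474 CPM in control CD4+, CD8+ and DN libraries and at 656, 390 and 1035 CPM in the IR group. DN T cells of injured kidneys had the highest level, with a log2 ratio to control of 1.13, or 0.98 when centred by intronic length. The type I and III ligands Ifnb1, Ifna1, Ifna4, Ifne, Ifnl2 and Ifnl3 had 0 UMIs in all 6 libraries. The type I ligands Ifna2 and Ifnk, also on the list, had UMIs in control CD4+ T cells and stayed under 10 CPM in every library. Of the 6 receptor genes, 1 was higher in IR CD4+ and CD8+ T cells (7.73% and 7.93% of all genes), Ifngr2, the signalling chain for interferon gamma, at 8.94, 13.8 and 1.17 CPM in control and 76.2, 121 and 5.24 CPM in IR libraries. Ifnar1 was at 107, 113 and 106 CPM in control and at 88.8, 71.7 and 93.5 CPM in IR libraries.

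Among the transcription factors of the pathway, Irf8, a factor of myeloid and B cells that T cells also use, was lower by 2-fold in all 3 subsets (15.1%, 17.7% and 11.2% of all genes), at 36.3, 19.6 and 45.4 CPM in control and 14.3, 9.16 and 16.2 CPM in IR libraries. In CD8+ T cells its log2 ratio of −1.10 became −0.78 when centred by intronic length. Irf1, a factor that interferon gamma induces, was at 296, 313 and 287 CPM in control and at 460, 525 and 361 CPM in IR libraries, above every control library and under 2-fold. Of the 5 brakes, 2 were higher in all 3 subsets (7.73%, 7.93% and 8.32% of all genes). Socs1, which inhibits the receptor kinases, was at 92.1, 88.6 and 120 CPM in control and at 417, 437 and 407 CPM in IR libraries, and Socs3 was at 43.4, 39.5 and 33.8 CPM and at 298, 296 and 117 CPM.

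Single cells were compared after each was thinned to 500 retained UMIs, so that depth was equal. UMIs of at least 3 different interferon-stimulated genes were found in 12.5% (11.9 to 13.2), 12.7% (12.1 to 13.4) and 11.2% (10.6 to 11.9) of the cells in control CD4+, CD8+ and DN libraries, and in 6.07% (5.61 to 6.55), 4.71% (4.20 to 5.26) and 5.37% (4.69 to 6.11) in the IR group. Without thinning these shares were 90.1%, 83.0% and 95.8% and 33.2%, 16.0% and 19.8%, which follow depth. The gap between the conditions narrowed among cells with many of the genes. At least 8 were found in 0.735% (0.571 to 0.931), 0.570% (0.427 to 0.744) and 0.629% (0.476 to 0.816) of control cells and in 0.633% (0.488 to 0.808), 0.316% (0.193 to 0.487) and 0.792% (0.542 to 1.12) of IR cells, and the intervals of the conditions overlapped in all 3 subsets. Single cells reached 16 to 20 different interferon-stimulated genes out of 500 UMIs in every library. The variance of the per-cell sum over its mean was 2.58, 2.21 and 2.65 in control and 2.98, 2.82 and 3.75 in IR libraries.

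The genes were found together in the same cells more than their separate shares give. For Ifit1 and Ifit3, 13, 22 and 20 cells of the control CD4+, CD8+ and DN libraries held both where the product of the shares gives 1.47, 3.41 and 1.61, and 10, 23 and 16 IR cells held both where the product gives 0.891, 0.829 and 0.590. For Ifit3 and Isg15 the cells with both numbered 22, 41 and 28 against products of 2.85, 8.62 and 2.84 in control and 36, 27 and 28 against 3.49, 2.60 and 1.88 in IR libraries. Over the pairs whose product was at least 5 cells, which were 56 to 352 of the 703 pairs per library, the median of found to product was 1.53 to 1.88. Genes with low counts enter few of these pairs. Of the products named above, only that of Ifit3 and Isg15 in control CD8+ cells reached this minimum. No like median was computed for pairs of other genes.

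Cells were then split, for each gene in turn, by whether they held UMIs of at least 3 of the other genes. The level of the gene left out was higher in such cells for all 38 genes in both conditions. The ratio of the 2 levels had a median of 2.86 in the control group, from 1.59 for Gbp7 to 16.7 for Rsad2, and of 5.52 in the IR group, from 2.55 for Ddx58 to 38.8 for Ifit3. The split takes different shares of cells in the 2 conditions, so their ratios are not compared with each other. Of the 38 genes, 36 in the control and 31 in the IR group had at least 100 UMIs, and 29 and 31 of these had a ratio of 2 or more. Of other genes with at least 100 UMIs, the second list of interferon-stimulated genes left out, 17 of 9203 (0.185%) in the control and 68 of 8449 (0.805%) in the IR group were 2-fold higher in cells with 3 or more of the genes. The share of other genes with any higher level was not counted.

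The genes differed in how far they were concentrated in such cells. Ifit3 was at 167 CPM in them and at 16.6 CPM in the rest in the control group, and at 324 and 8.36 CPM in the IR group, where 69.0% of its UMIs fell in them. Isg15 was at 290 and 52.3 CPM in the control and at 903 and 62.7 CPM in the IR group. Cxcl10 was at 166 and 18.1 CPM and at 351 and 29.9 CPM. By contrast Gbp7 was at 241 and 152 CPM and at 177 and 68.4 CPM, and Slfn8 at 187 and 103 CPM and at 106 and 32.4 CPM. The IFIT and OAS genes had median ratios of 6.38 in control and 12.6 in IR, the GTPases 2.18 and 3.64, and the Schlafens 1.82 and 3.26. Herc6 was at 280 and 107 CPM in the control group and at 142 and 29.9 CPM in the IR group. Bst2 was at 293 and 112 CPM in the control group and at 1048 and 168 CPM in the IR group.

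**Figure D5:**
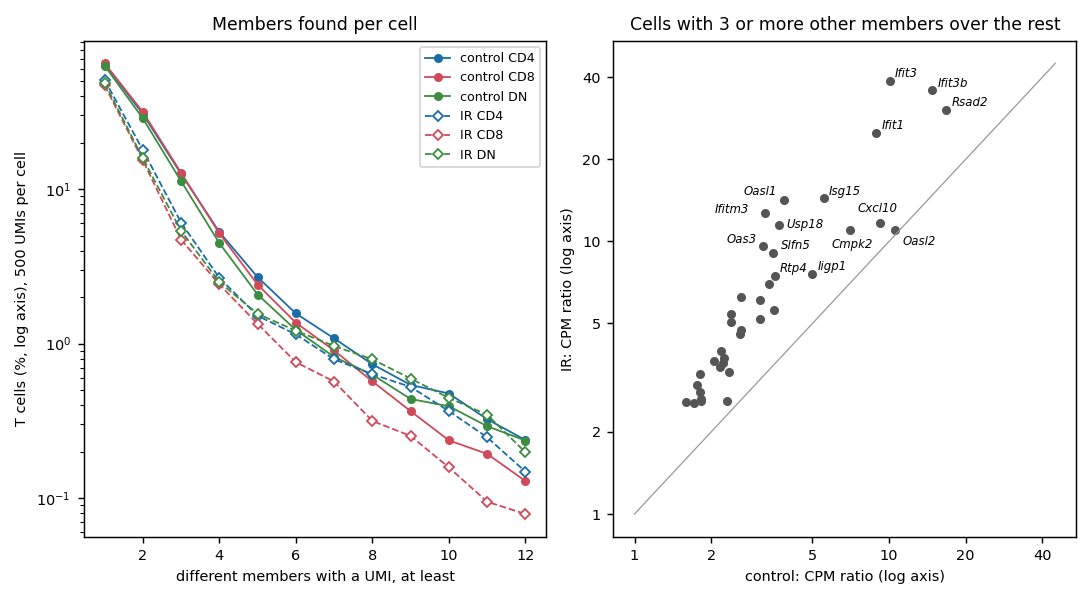
Left, percent of T cells with UMIs of at least a given number of different interferon-stimulated genes after thinning to 500 UMIs (log axis), for the 6 libraries. Right, for each gene, the ratio of its level in cells with at least 3 of the other genes to that in the remaining cells, control against IR, both on log axes, with Ifit3 at 38.8 in IR and all 38 genes above 1 in both.

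Cells with at least 5 of the genes numbered 658 in the control and 301 in the IR group, and their median depth before thinning was near that of the others. Interferon-stimulated genes outside the 38 were also counted where UMIs were enough. In these cells 33 of 47 in the control and 43 of 45 in the IR group were 2-fold higher. Of all genes outside the 38, this list included, 2.04% and 4.30% were 2-fold higher. Ifng differed by less in these cells, by a factor of 1.09 in the control and 1.68 in the IR group. The 10 myeloid markers summed to 103 CPM in these cells against 120 CPM in the rest in the control group, but to 538 against 194 CPM in the IR group. In the IR group the neutrophil genes S100a8 (31 UMIs) and S100a9 (29 UMIs) held most of the 81 UMIs of that sum, Cst3 was at 106 against 137 CPM and C1qb at 6.64 against 13.2 CPM, and Cd68, Csf1r and Adgre1 had 0 UMIs in these cells. Of the 301 IR cells, 2 were in the cluster led by Cd74 and S100a9, and 3 shared a barcode with another library. The part of such transcripts in the IR values was not tested.

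Over the 20 clusters of T cells, of which 19 held at least 90% of their cells from 1 condition, the summed level ran from 1396 to 2959 CPM. The lowest level was in a cluster led by Gm43698 and Ccr7, with 3876 of its 4001 cells from the IR CD8+ library. The highest was in a cluster led by Cd4 and Rai14, with 3128 of its 3237 cells from the control CD4+ library. In cluster 6, led by Gm2245 and Gm36975, the level was 2417 CPM in 1639 control CD4+ cells and 1538 CPM in 113 IR CD4+ cells, and in the cluster led by Cd74 it was 2998 CPM in 50 and 2177 CPM in 100 cells of the same libraries.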

How the data were processed

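The deposited matrices hold raw UMI counts for each gene in each barcode. The authors had made them with Cell Ranger on mm10, without normalization (5.0.1 in the headers of the control files, 6.0.1 in those of the IR files, 6.0.1 for all in the submitters' processing notes). The study's methods name default settings and do not mention intronic reads or strand. Groups came from the sample titles. The 38 genes and all lists were chosen with earlier results of these data known.

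Barcodes with at least 500 features and at most 20% mitochondrial UMIs were kept, and the top 5% by UMIs per library were taken out as possible doublets, with no doublet caller. Clusters (scanpy 1.11.5, igraph 0.11.9, 2000 variable genes, 30 components, 15 neighbours, resolution 1) with Cd3 UMIs in under 50% of cells were removed. Libraries share 997 barcodes, 276 of them among T cells. Mitochondrial, ribosomal protein genes and Malat1 (105 features) were left out of the totals, and ribosomal protein genes took 16.6 to 22.7% of control and 27.1 to 42.0% of IR UMIs. Retained totals were 45561115 to 60781085 UMIs in control and 4385850 to 15468879 in IR libraries.

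Sums per library were compared as CPM with intervals from numpy 2.4.6 and scipy 1.17.1 on Python 3.11.15, with a floor of 3 counts. Alternatives used TMM (edgeR 4.0.16) and median-of-ratios factors (DESeq2 1.42.0) in R 4.3.3, other filters, totals and thinning. No count model was fitted because each group had 1 library. Intronic lengths came from GENCODE M21. Genes were named by a rule: all members by role, the pathway lists, and members past the limit. The scripts were checked on simulated data. Some planned results, among them a split of the cells by marker genes, are not reported here.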

Additional observations from a re-analysis of the deposited data

Results flagged for a closer look

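The following genes differed between subsets in opposite directions in the control and the IR group, with counting intervals on opposite sides of 0, and the difference between conditions was not tested. The log2 ratio of DN to CD4+ T cells was −0.21 in the control and 0.27 in the IR group for Isg20. The log2 ratio of DN to CD8+ T cells went from −0.36 in the control to 1.17 in the IR group for Ifit3b, from −0.14 to 0.48 for Herc6, from −0.10 to 0.42 for Parp14 and from −0.07 to 0.24 for Irf7. For Irf7 the log2 ratio of CD4+ to CD8+ T cells also went from −0.24 to 0.20. Scaling alone moved such ratios. The summed log2 ratio of DN to CD8+ T cells went from −0.0074 to 0.09 in the control group with the removed features kept. In the IR group it went from 0.10 to −0.05 with TMM. The control ratios of Parp14 and Irf7 are near the size of the first of these shifts. The share of all genes that turn in this way was not counted. Outside the T cells, the 303 barcodes removed from the IR libraries as non-T held Ifitm3 at 843 CPM (757 to 937, 347 UMIs), against 509 CPM (391 to 652, 63 UMIs) in the 37 removed from the control libraries. By library it was at 561, 915 and 23.7 CPM in the control group (CD4+, CD8+ and DN) and at 857, 877 and 791 CPM in the IR group, so that the highest level was in control CD8+, on 9 barcodes.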

How the results depend on the processing

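With 1 library per group, no replicate could be left out. No paired analysis was made. Each group had 1 library and no replicate number pairs samples across groups. A fit of condition with subset as a term, which would pair the libraries by subset, was not run. The summed level stayed lower in the IR group under all alternatives. Its log2 ratios, −0.48, −0.57 and −0.47 in CD4+, CD8+ and DN T cells, became −0.46, −0.47 and −0.51 with TMM, −0.38, −0.38 and −0.39 with DESeq2 factors, and −0.84, −0.998 and −0.64 with the removed features kept (where the median of all genes was −0.64, −0.82 and −0.45). In CD4+ and CD8+ they were −0.54 and −0.64 without cells with marker UMIs of other cells, −0.52 and −0.67 with thinned cells, and −0.51 and −0.64 as a mean over cells, and −0.60 in CD8+ without cell filters.

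The 10 genes lower in IR CD4+ became 5 with DESeq2 factors (11.7% of all genes) and 17 with the removed features kept (31.0%), the 12 in CD8+ became 7 with DESeq2 factors (11.1%) and 5 when centred by intronic length (5.81%), and the 12 in DN became 7 when centred (4.13%). Past 2-fold in every alternative were 4 of 10, 5 of 12 and 6 of 12. These were Herc6, Igtp, Iigp1 and Slfn8 in CD4+ and Ifit2, Ifit3b, Herc6, Slfn8 and Parp14 in CD8+ T cells. In DN T cells they were Oas3, Oasl1, Igtp, Iigp1, Slfn1 and Slfn8. The share of all genes that stayed so was not counted, so these counts have no background. The 1 higher in CD4+ became 0 with the removed features kept, without marker cells, at 50 CPM or centred. The 0 higher in CD8+ became 1 with the top 5% kept, without cell filters, with non-T clusters kept or with no minimum. The 2 higher in DN became 1 with the removed features kept, without marker cells by the full or rarer list, without the cluster led by Cd74, at 50 CPM or centred, and the rarer list and that cluster were chosen after seeing the data.

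Between control subsets, the 1 gene lower in DN than CD4+ became 0 with the top 5% kept, without filters, without marker cells or thinned (with 1 higher when thinned), the 0 lower against CD8+ became 1 without marker cells, the 3 higher became 1 at 50 CPM, and the 2 higher in CD4+ than CD8+ became 4 with no minimum. Between IR subsets, the 1 lower in DN than CD4+ became 2 with TMM and 0 at 50 CPM, the 4 higher against CD8+ became 1 at 50 CPM, and the 3 higher in CD4+ than CD8+ became 6 with the removed features kept, 5 with the top 5% kept, without filters or with no minimum, and 0 at 50 CPM. The sign of the summed level changed for control DN against CD8+ (from −0.0074 to 0.09 with the removed features kept), IR DN against CD4+ (0.11 with the same) and IR DN against CD8+ (−0.05 with TMM, −0.02 with DESeq2 factors). The cause of these changes was not tested.

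The shares of cells with 3 or more of the genes were 34.8%, 33.7% and 32.1% in control and 18.4%, 17.1% and 18.6% in IR libraries at 1000 UMIs, where 3677 IR CD8+ and 1941 IR DN cells were too shallow to enter, and 90.1%, 83.0% and 95.8% and 33.2%, 16.0% and 19.8% without thinning. The shallow IR libraries limit the genes under 10 CPM.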

Other observations

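A second list of 60 interferon-stimulated genes, of which 46, 47 and 46 were tested in CD4+, CD8+ and DN T cells, held 11, 16 and 11 genes lower and 2, 0 and 0 higher in the IR group, with a median log2 ratio of −0.49, −0.81 and −0.62. Of all genes 15.1%, 17.7% and 11.2% were lower and 7.73%, 7.93% and 8.32% higher. Centred by intronic length, 5, 8 and 6 genes of the list were lower, against 5.08%, 5.81% and 4.13% of all genes. Epsti1, an interferon-induced gene of T cells and macrophages, was at 846, 1527 and 804 CPM in control CD4+, CD8+ and DN libraries and at 321, 541 and 351 CPM in the IR group. Sp100, a scaffold of nuclear bodies, was at 585, 731 and 666 CPM in control and at 242, 287 and 245 CPM in IR libraries. Eif2ak2, the kinase PKR that halts translation on double-stranded RNA, was at 47.5, 47.0 and 46.3 CPM in control and at 13.8, 11 and 16.9 CPM in IR libraries. All 3 genes were more than 2-fold lower in each subset.

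Among the guanylate-binding proteins of that list, Gbp8 and Gbp9 were lower in all 3 subsets, and Gbp6 in CD4+ and CD8+ T cells (86.2 to 29.2 CPM and 57.4 to 18.6 CPM). The genes higher in IR CD4+ T cells were Ifi27l2a, a small mitochondrial protein gene, at 625 against 1322 CPM, and Tgtp1, which has a near copy, at 7.91 against 17.8 CPM. In DN T cells Ifi27l2a differed by less, from 443 CPM to 485 CPM.

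The barcodes removed as non-T had a summed level of the 38 genes of 5610, 3858 and 1566 CPM in control CD4+, CD8+ and DN libraries (13, 9 and 15 barcodes) and of 1782, 1842 and 1854 CPM in the IR group (104, 100 and 99 barcodes), so that control DN lay below the IR libraries and the other two above. They had 0 UMIs of C1qa, Cd79a and Siglech, and few of Lyz2.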
